A study of Mus musculus with 4 samples.

Results

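Fatty acid synthesis and desaturation was followed through 10 genes, *Acly*, *Acss2*, *Acaca*, *Fasn*, *Elovl6*, *Elovl5*, *Scd1*, *Scd2*, *Fads1* and *Fads2*, which were chosen by name. They are carried by 16 of the 55681 probes on the array, and all 10 were among the 19678 genes tested for a response to PJ34. RNA came from neural stem/progenitor cells (NSPCs) of mouse embryos at embryonic day 13.5, all labelled with the strain Slc:ICR and either wild-type or Trp53-/-. The Trp53-/- embryos were bred from heterozygous mice with a germline allele, whose own strain is not given in the sources used here. All NSPCs were grown in neurosphere medium with B-27, EGF and FGF-basic. On each of 4 Agilent SurePrint G3 Mouse GE arrays, 2 per genotype, RNA of NSPCs treated with 20 μM PJ34, an inhibitor of poly(ADP-ribose) polymerases, was labelled with Cy5 and RNA of untreated NSPCs of the same genotype with Cy3. The length of the treatment and the number of embryos behind an RNA are not given in the sources used here. Each RNA was prepared independently, so n = 2 arrays per genotype, and no dyes were swapped, so dye bias and the effect of PJ34 cannot be told apart within a genotype. A value is a log2 ratio of PJ34 over control after loess normalization within the array unless it is called a level. A gene passed the test when limma's p and Storey's q over all genes were both below 0.05.

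Fatty acids are built in the cytosol from acetyl-CoA. *Acly* (ATP citrate lyase) and *Acss2* (acetyl-CoA synthetase) supply the acetyl-CoA, *Acaca* (acetyl-CoA carboxylase alpha) turns it into malonyl-CoA in the committed step, and *Fasn* (fatty acid synthase) joins the units into palmitate. The elongase *Elovl6* lengthens palmitate to stearate, the desaturases *Scd1* and *Scd2* make monounsaturated fatty acids, and *Fads1*, *Fads2* and *Elovl5* convert dietary polyunsaturated precursors. The transcription factors SREBP-1 and SREBP-2, encoded by *Srebf1* and *Srebf2*, activate most of these genes together with the genes of cholesterol synthesis, and proliferating neural stem cells are known to depend on making fatty acids themselves.

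The control channel of an array had 21505 to 24540 probes well above background and the PJ34 channel 26081 to 27156, and no spot was saturated. The level of *Trp53* in the untreated RNA was 8.28 and 8.51 (log2) on the wild-type arrays and 7.56 and 7.82 on the Trp53-/- arrays, so the genotypes did not overlap, although where the probe lies relative to the deleted part is not given in the sources used here. Trp53-/- replicate 2 stood apart in sex-linked genes, with a log2 ratio of 4.22 for *Eif2s3y* and 3.12 for *Ddx3y*, against values from -0.20 to 0.84 for both genes on the other arrays, and of -1.39 and -3.08 for the probes of *Xist*. The PJ34 and control RNA of this array were thus unlike in sex-linked transcripts, and the counts of lipid genes that passed in Trp53-/- are also given without this array. All 12 NSPC markers, among them *Nes*, *Sox2* and *Pax6*, were well above background on all 4 arrays. So were 8 of 10 neuron, 10 of 11 oligodendrocyte lineage, 6 of 7 astrocyte, 2 of 5 microglia and 1 of 4 endothelial markers. The neuron markers *Stmn2* and *Neurod1*, the oligodendrocyte marker *Myrf*, and all markers of fibroblasts and meninges were not above background on any array.

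The sequences before the start sites are shown for the 4 genes that fell in both genotypes under loess and for *Fasn*, which did not fall in either. Of the other genes that fell in neither, *Elovl5* is not printed, though its motifs are given below, and *Scd2* was not in the RefSeq table. The printed sequences are the 250 bases before the RefSeq start site, 5′ to 3′ on the strand of the gene, in GRCm38.p6. Capitals mark the letters TCACCC, which lie within the sterol regulatory element bound by SREBPs, and CCAAT, the motif of NF-Y, on either strand.
Acly, chr11:100528001-100528250, minus strand: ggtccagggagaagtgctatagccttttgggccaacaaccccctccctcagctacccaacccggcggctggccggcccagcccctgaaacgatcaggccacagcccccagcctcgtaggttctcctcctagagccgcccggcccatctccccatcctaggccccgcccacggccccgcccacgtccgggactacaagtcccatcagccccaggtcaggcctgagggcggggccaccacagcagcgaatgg
Acss2, chr2:155517793-155518042, plus strand: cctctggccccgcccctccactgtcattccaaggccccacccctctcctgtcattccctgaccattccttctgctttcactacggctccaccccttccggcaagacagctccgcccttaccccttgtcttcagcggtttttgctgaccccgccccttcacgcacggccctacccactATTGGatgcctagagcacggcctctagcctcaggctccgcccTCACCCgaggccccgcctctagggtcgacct
Elovl6, chr3:129532136-129532385, plus strand: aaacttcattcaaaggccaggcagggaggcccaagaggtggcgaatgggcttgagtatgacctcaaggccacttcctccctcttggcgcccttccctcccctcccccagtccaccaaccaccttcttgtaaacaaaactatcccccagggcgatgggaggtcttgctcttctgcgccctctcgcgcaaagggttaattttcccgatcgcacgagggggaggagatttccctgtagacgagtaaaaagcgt
Fads2, chr19:10101504-10101753, minus strand: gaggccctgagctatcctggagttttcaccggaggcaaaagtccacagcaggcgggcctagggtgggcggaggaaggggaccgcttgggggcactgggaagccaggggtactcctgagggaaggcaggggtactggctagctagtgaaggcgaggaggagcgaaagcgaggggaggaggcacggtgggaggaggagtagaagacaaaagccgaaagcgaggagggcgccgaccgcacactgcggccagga
Fasn, chr11:120824548-120824797, minus strand: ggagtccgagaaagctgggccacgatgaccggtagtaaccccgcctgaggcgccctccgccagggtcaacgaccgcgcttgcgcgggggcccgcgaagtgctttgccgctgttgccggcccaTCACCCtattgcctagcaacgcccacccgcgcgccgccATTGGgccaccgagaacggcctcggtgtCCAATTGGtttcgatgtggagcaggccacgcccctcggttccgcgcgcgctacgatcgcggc
Of the 7 genes found in the RefSeq table, TCACCC was in the windows of *Acss2*, at position -31 from the start site, and *Fasn*, at position -128, whereas 13.8% of all 32851 windows of this length hold it. CCAAT was in 3 of the 7 (*Acss2*, *Fasn* and *Elovl5*) and in 33.8% of all windows, and in *Fasn* 2 of its 3 sites share bases on opposite strands. GGGCGG, the motif of Sp1, was in 3 of the 7 (*Acly*, *Acss2* and *Fads2*) and in 32.7% of all windows, and the E-box CACGTG only in that of *Elovl5*, against 6.02%. The windows of *Acly* and *Fads2* held only GGGCGG of these motifs, and that of *Elovl6* held none.

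In wild-type NSPCs, 7 of the 10 genes fell with PJ34 and 0 rose, against 11.4% of all genes lower and 13.7% higher. The genes that fell were *Acly*, *Acss2*, *Acaca*, *Elovl6*, *Scd1*, *Fads1* and *Fads2*. Median centring of each array in place of loess subtracts the median ratio of all spots but control and outlier spots. These spots include dim probes that were left out later, and unlike loess the scaling does not follow changes of the ratio with intensity. With median centring, 4 of the 10 were higher and 0 lower. Among all 19678 genes, 11887 were then higher and 91 lower. Those 4 genes included *Fasn*, *Elovl5* and *Scd2*, which had not fallen after loess. In Trp53-/- NSPCs, 4 of the 10 fell (*Acly*, *Acss2*, *Elovl6* and *Fads2*) against 10.5% of all genes, and *Fasn* alone rose, against 12.7%, whereas under median centring all 10 were higher, beside 13527 of all 19678 genes. The median log2 ratio of the 10 genes was -0.39 in wild-type and -0.15 in Trp53-/-, beside 0.03 for all genes in both, and with median centring it was 0.24 in wild-type and 0.76 in Trp53-/- beside 0.46 and 0.64. Relative to all genes the 10 were thus lower in wild-type by both scalings, at -0.42 with loess and -0.23 with median centring (log2). In Trp53-/- they were at -0.18 with loess but at 0.12 with median centring. Of the 10, only *Fasn* (mean log2 intensity 8.37) was dimmer than the median of all genes (8.71), and *Scd2* was the brightest (15.17). The comparison with all genes was not matched for brightness, and the part of brightness in it was not tested. After loess no gene of the 10 passed with more than a 2-fold change, the further limit in the study's methods (with median centring 3 did in Trp53-/-), which 0.503% of all genes passed in wild-type and 0.371% in Trp53-/-. In RNA of whole cultures, fewer cells of a type and less RNA per cell cannot be told apart.

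**Figure D1:**
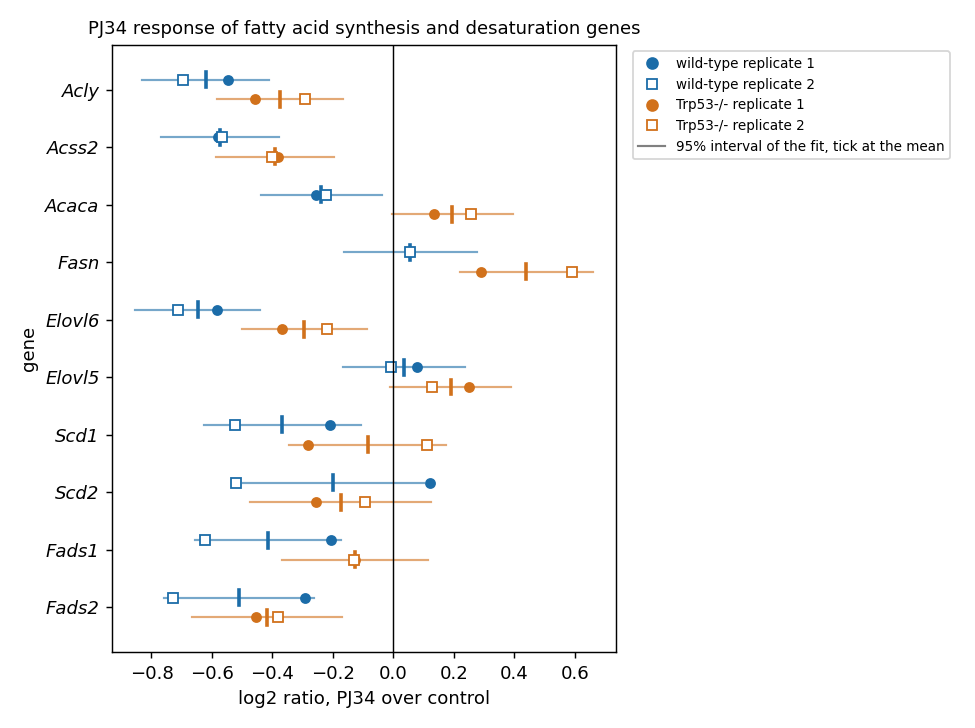
Log2 ratios of PJ34 over control (x axis) of the 10 genes (y axis) after loess, with filled circles for replicate 1, open squares for replicate 2, a tick at the genotype mean and a line for the 95% interval of limma's fit (n = 2 arrays per genotype). The wild-type mean (blue) lies left of the Trp53-/- mean (orange) for each of the 10 genes, and 7 wild-type and 4 Trp53-/- means passed the test as lower. With median centring 0 of the 10 were lower, while 4 were higher in wild-type and 10 in Trp53-/-, as most genes were.

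Both suppliers of acetyl-CoA fell in both genotypes. *Acly*, read from a probe at chr11:100337674-100337733 (mm9, as all probe positions here), gave ratios of -0.55 and -0.70 in wild-type and -0.46 and -0.29 in Trp53-/-. It was 1.54-fold lower in wild-type (mean -0.62 ± 0.11, SD, n = 2, q = 0.000859) and 1.30-fold lower in Trp53-/- (mean -0.37 ± 0.12, SD, n = 2, q = 0.0117). All 4 arrays were negative, and both wild-type values lay below both Trp53-/- values.

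*Acss2* (chr2:155388416-155388475) had closer replicates than *Acly*. Its log2 ratios were -0.58 and -0.57 in wild-type and -0.38 and -0.40 in Trp53-/-. That is 1.49-fold lower in wild-type (-0.57 ± 0.01, SD, n = 2, q = 0.000903) and 1.31-fold lower in Trp53-/- (-0.39 ± 0.01, SD, n = 2, q = 0.00734). Again the genotypes did not overlap and wild-type was the lower.

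Next come the enzymes that build on acetyl-CoA. *Acaca* (chr11:84215093-84215152) gave ratios of -0.25 and -0.22 in wild-type and 0.13 and 0.26 in Trp53-/-, so the genotypes stood on opposite sides of 0. The wild-type mean of -0.24 ± 0.02 (SD, n = 2) passed only just (q = 0.0492), was also called with scaling between arrays, the strict filter, the variance trend and the crossed replicate block, and was not called as lower under any other setting tried on this probe. The Trp53-/- mean of 0.19 ± 0.09 (SD, n = 2) did not pass (q = 0.0839).

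*Fasn* (chr11:120667666-120667725) had log2 ratios of 0.06 on both wild-type arrays and of 0.29 and 0.59 in Trp53-/-. The wild-type mean did not pass (0.06, 95% interval -0.16 to 0.28, q = 0.382). In Trp53-/- it was 1.36-fold higher (0.44 ± 0.21, SD, n = 2, q = 0.00749), and without Trp53-/- replicate 2 the value was 0.29 and did not pass (q = 0.187). *Fasn* was thus the 1 gene of the 10 that rose after loess, and the call was lost without the array that stood apart.

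The elongases differed from each other. *Elovl6* (chr3:129341248-129341307) gave ratios of -0.58 and -0.71 in wild-type and -0.37 and -0.22 in Trp53-/-. It was 1.57-fold lower in wild-type (-0.65 ± 0.09, SD, n = 2, q = 0.000644), the lowest mean of the 10 genes there, and 1.23-fold lower in Trp53-/- (-0.29 ± 0.11, SD, n = 2, q = 0.0284). *Elovl5* (chr9:77832205-77832264) gave ratios of 0.08 and -0.01 in wild-type and 0.25 and 0.13 in Trp53-/-, and neither mean passed, with 95% intervals of -0.17 to 0.24 and -0.01 to 0.39. Both elongases had wild-type values below both Trp53-/- values.

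Of the stearoyl-CoA desaturases, *Scd1* fell in wild-type and the test called neither change of *Scd2*. *Scd1* (chr19:44469387-44469446) gave ratios of -0.21 and -0.52 in wild-type (-0.37 ± 0.22, SD, n = 2, q = 0.0280) and -0.28 and 0.11 in Trp53-/- (-0.08 ± 0.28, SD, n = 2, q = 0.324). *Scd2* (chr19:44381024-44381083) had 0.12 and -0.52 in wild-type, the widest gap between replicates of the 10 genes, and -0.25 and -0.09 in Trp53-/-. Its 95% intervals ran from -0.50 to 0.10 in wild-type and from -0.47 to 0.12 in Trp53-/-. The genotypes overlapped for both genes.

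The desaturases of polyunsaturated fatty acids fell in wild-type, and *Fads2* fell in Trp53-/- also. *Fads2* (delta-6 desaturase, chr19:10137760-10137819) gave ratios of -0.29 and -0.73 in wild-type (-0.51 ± 0.31, SD, n = 2, q = 0.00558) and -0.45 and -0.38 in Trp53-/- (-0.42 ± 0.05, SD, n = 2, q = 0.0149). *Fads1* (delta-5 desaturase, chr19:10270530-10270589) had -0.21 and -0.62 in wild-type (-0.41 ± 0.29, SD, n = 2, q = 0.0129) and -0.13 on both Trp53-/- arrays (95% interval -0.37 to 0.11, q = 0.224). Replicate 2 was the lower wild-type array for *Scd1*, *Scd2*, *Fads1* and *Fads2* alike.

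Several of these calls were lost when 1 array was left out. Without wild-type replicate 2, 3 of the 10 genes fell in wild-type (*Acly*, *Acss2* and *Elovl6*), and without wild-type replicate 1 there were 7, with *Scd2* in place of *Acaca*. Without Trp53-/- replicate 2, only *Acly* passed in Trp53-/-, as lower, and without Trp53-/- replicate 1 only *Fasn* passed, as higher. These fits leave 1 array in a genotype, which is assumed to vary like those of the other. Fewer of all genes passed in that genotype too, so the losses are not particular to the 10. The median of the 10 genes was -0.23 and -0.54 on the wild-type arrays and -0.27 and -0.11 on the Trp53-/- arrays, with 7, 9, 7 and 6 of the 10 negative.

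The response to PJ34 was lower in wild-type than in Trp53-/- for all 10 genes, with a median difference of -0.26 on the log2 scale, beside -0.01 for all genes. Median centring kept the 10 negative differences, with a median of -0.52 beside -0.14 for all genes, and with the scanner software's own log ratios 9 of the 10 were negative, as they were without Trp53-/- replicate 2. Without wild-type replicate 2, 8 of the 10 were negative, *Scd2* and *Fads2* being the exceptions. No single difference passed the test, against 1.83% of all genes that did in either direction. At an unadjusted p below 0.05 there were 3 (*Acaca*, *Fasn* and *Elovl6*), beside 2838 of all 19678 genes, and 0 passed with Benjamini-Hochberg adjustment. The arrays of the genotypes did not overlap, with wild-type lower, for 7 of the 10 genes, against 23.8% of all genes. *Acaca* differed most, by -0.43 ± 0.13 (SE, q = 0.103), then *Fasn* by -0.38 ± 0.14 (SE, q = 0.173) and *Elovl6* by -0.35 ± 0.13 (SE, q = 0.180). The differences of *Scd2* (-0.02, 95% interval -0.45 to 0.40) and *Fads2* (-0.09, 95% interval -0.44 to 0.26) were the smallest, and their intervals also span sizes as large as that of *Elovl6*. A dye bias that is equal on all arrays cancels in this contrast.

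The untreated levels of the 10 genes did not differ between genotypes past the test: 0 of 10 passed, against 10.1% of all genes in either direction, 0 had an unadjusted p below 0.05, beside 4244 of all 16862 genes, and 0 passed with Benjamini-Hochberg adjustment. The largest differences were those of *Scd2* at 0.37 (Trp53-/- over wild-type on the log2 scale, 95% interval -0.24 to 0.97), *Elovl6* at -0.29 (-0.79 to 0.22) and *Acly* at 0.28 (-0.15 to 0.71). The level of *Scd2* was 15.43 and 14.78 in untreated wild-type and 15.50 and 15.43 in untreated Trp53-/-. The level of *Scd1* was 11.39 and 10.59 in wild-type and 10.97 and 10.95 in Trp53-/-. In both desaturases the wild-type arrays differed from each other by more than the genotype means did.

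The 2 untreated wild-type RNAs stood apart in these genes. All 10 levels were higher in replicate 1 than in replicate 2, by 0.19 (*Fads1*) to 0.80 (*Scd1*) and a median of 0.42 on the log2 scale, whereas over all 16862 genes replicate 1 was higher in 46.9% with a median of -0.03. In untreated Trp53-/-, replicate 1 was higher in 5 of the 10, with a median of -0.00482. The calls on untreated levels changed with the wild-type array used. Without wild-type replicate 1, 4 genes were higher in Trp53-/- (*Acly*, *Fasn*, *Scd1* and *Scd2*), beside 3374 of all 16862 genes. Without wild-type replicate 2, 3 were lower (*Scd1*, *Elovl6* and *Fads2*), beside 3962 of all 16862 genes. Leaving out either Trp53-/- array gave 0 of 10.

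**Figure D2:**
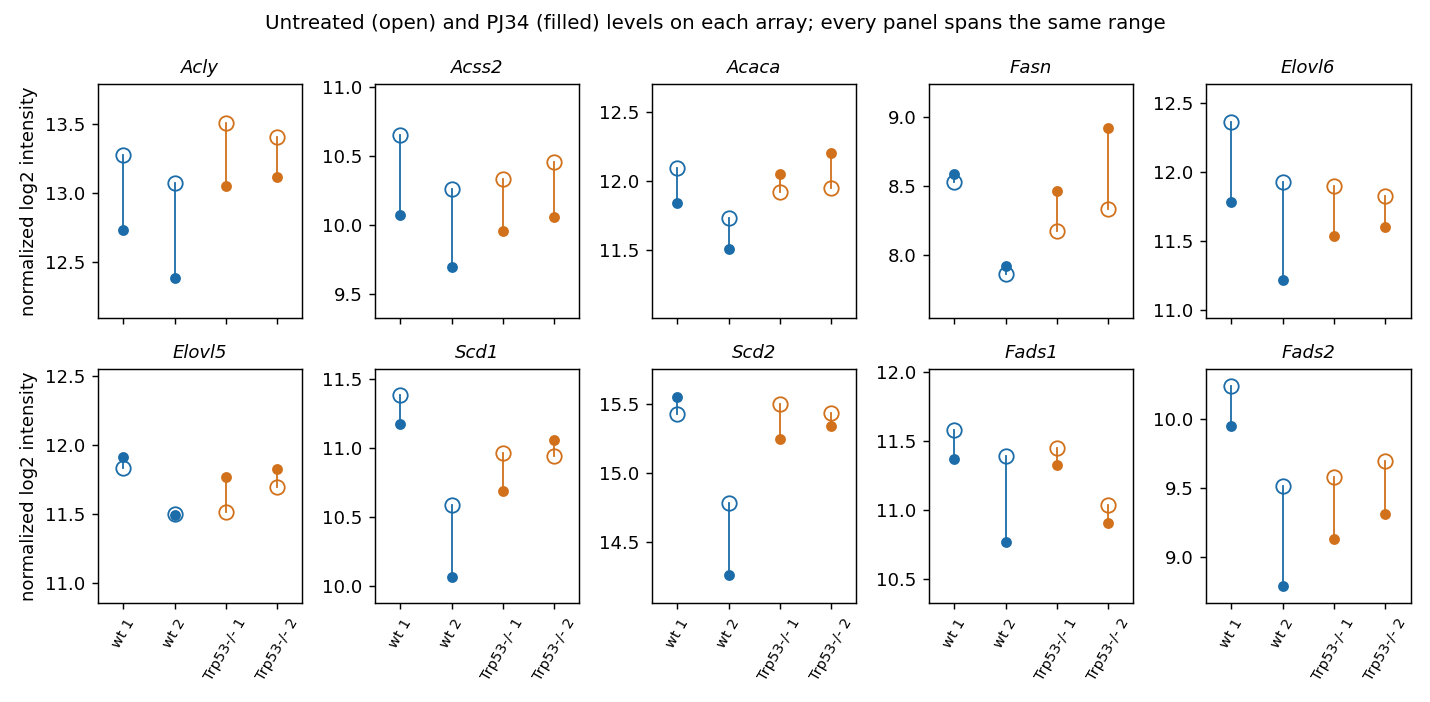
Normalized log2 intensity (y axis) of untreated RNA (open circles) and PJ34 RNA (filled circles) of each gene on each array (x axis, wt for wild-type, 1 and 2 for the replicates), with both joined by a line and the same span of log2 units in every panel. All 10 open circles of wild-type replicate 1 lie above those of wild-type replicate 2. *Acly*, *Acss2*, *Elovl6* and *Fads2* have the filled circle below the open one on all 4 arrays. With median centring their mean ratios were near 0 in wild-type (0.00387 to 0.0691) and positive in Trp53-/- (0.34 to 0.61).

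Markers of other cell types also differed between the untreated cultures. The summed level of 10 neuron markers (linear normalized intensity) was 20381 and 14345 in wild-type and 27227 and 22297 in Trp53-/-, and *Stmn2* and *Neurod1* were not above background on any array. *Gap43* gave the largest part of this sum on each array. The sum of 11 oligodendrocyte lineage markers was 43776 and 41931 in wild-type and 53019 and 46233 in Trp53-/-, with *Myrf* above background on no array and most of the sum from *Olig1*. The sum of the 7 astrocyte markers was 30854 and 33715 in wild-type and 39475 and 36692 in Trp53-/-, with most of the sum from *Aldoc*. In the test of untreated levels, 4 of 8 neuron markers were higher in Trp53-/- and 1 lower. The oligodendrocyte lineage had 3 of 10 higher and 1 lower, and the astrocyte markers 4 of 7 higher and 0 lower. Over all genes 10.1% passed in either direction. The sum of 5 microglia markers was 6124 and 7226 in wild-type and 4461 and 3853 in Trp53-/-, with *Aif1* and *Cx3cr1* above background on no array and most of the sum from *Itgam* and *Csf1r*. The sum of 4 endothelial markers was 8536 and 8113 against 3620 and 3233, with *Cdh5* and *Tek* above background on no array and most of the sum from *Kdr*. With PJ34, after loess, 3 of 10 oligodendrocyte lineage markers fell in wild-type and 7 of 10 in Trp53-/-, and 0 rose. Among 12 NSPC markers 6 fell and 2 rose in wild-type, and 4 fell and 1 rose in Trp53-/-. The 10 neuron markers had 0 lower and 3 higher in wild-type, and 1 lower and 1 higher in Trp53-/-. The 7 astrocyte markers had 1 lower and 1 higher in wild-type, and 1 lower and 3 higher in Trp53-/-. Over all genes 11.4% fell and 13.7% rose in wild-type, and 10.5% fell and 12.7% rose in Trp53-/-. The untreated cultures were also unlike in sex-linked transcripts, with a level of *Eif2s3y* of 8.96 and 8.47 in wild-type and 6.01 and 6.24 in Trp53-/-. The part of these markers in the values of the lipid genes was not tested.

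For 4 of the genes more than 1 probe could be read, and q was taken over all probes in this comparison. The second probe of *Acly* gave a mean of -0.26 in wild-type and -0.22 in Trp53-/-, and neither passed. The second probe of *Acss2* gave -0.28 in wild-type, which passed, and -0.20 in Trp53-/-, which did not. The second probe of *Fads2* gave -0.27 in wild-type, which passed, and -0.19 in Trp53-/-, which did not. The direction was the same as that of the probe read for the gene in each case, and the size smaller. The second probes were also dimmer, at mean log2 intensities of 7.30 against 13.06 (*Acly*), 7.52 against 10.19 (*Acss2*) and 8.30 against 9.53 (*Fads2*). The part of brightness in the smaller sizes was not tested.

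*Acaca* had 4 probes, 2 of which start 1 base apart and share 59 of their 60 bases. Their wild-type means were -0.24, -0.18, -0.19 and -0.26, and their Trp53-/- means 0.19, 0.05, 0.18 and 0.11. All 4 were thus lower in wild-type than in Trp53-/-, by -0.43, -0.23, -0.36 and -0.37. The last of these passed in wild-type (q = 0.0398), while the first, which is read for the gene, missed the threshold over all probes (q = 0.0523), and the middle ones (-0.18 and -0.19) did not pass. In the control channel 1 of them was well above background on only 2 arrays, and it is the one whose Trp53-/- replicate 1 fell below 0.

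**Figure D3:**
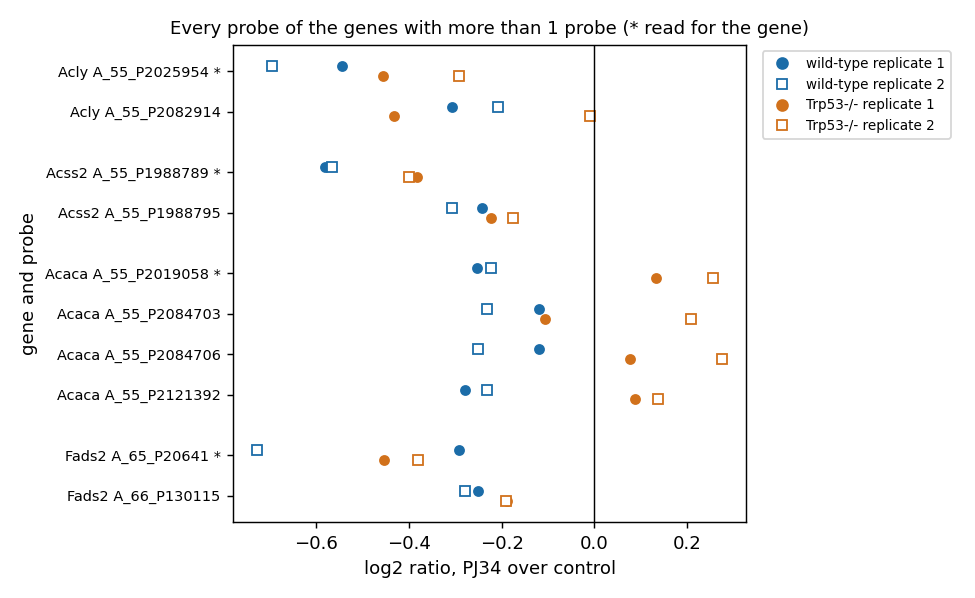
Log2 ratios of PJ34 over control (x axis) for every probe (y axis) of *Acly*, *Acss2*, *Acaca* and *Fads2*, with 1 point per array and an asterisk at the probe read for the gene. The second probes of *Acly*, *Acss2* and *Fads2* lie nearer to 0 than the first, and the wild-type points of all 4 *Acaca* probes are negative after loess.

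The regulators of this programme did not move as one. Of 19 genes of SREBP control and lipogenic regulation, 5 rose and 3 fell in wild-type, against 13.7% and 11.4% of all genes. In Trp53-/- 3 rose and 3 fell, against 12.7% and 10.5%. With median centring 15 were higher and 0 lower in each genotype, beside 11887 of all 19678 genes higher in wild-type and 13527 in Trp53-/-. *Mid1ip1*, which binds acetyl-CoA carboxylase and promotes its assembly into filaments, had a mean of -0.96 ± 0.06 (SD, n = 2) in wild-type and -0.80 ± 0.08 (SD, n = 2) in Trp53-/- and fell in both (q = 0.000116 and 0.000338). *Insig1*, a target of SREBPs that retains them in the endoplasmic reticulum, had -0.56 and -0.90 in wild-type and -0.62 and -0.43 in Trp53-/- and fell in both (q = 0.000694 and 0.00470). *Srebf2* was also lower on all 4 arrays, at -0.50 and -0.60 in wild-type and -0.49 and -0.35 in Trp53-/- (q = 0.00146 and 0.00650).

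*Srebf1* had ratios of the opposite sign to those of *Srebf2* after loess. Its log2 ratios were 0.45 and 0.09 in wild-type (q = 0.0541, not passing) and 0.32 and 0.40 in Trp53-/-, where it rose (q = 0.0205). *Mlxipl*, which encodes the glucose-responsive factor ChREBP, had 0.23 and 0.53 in wild-type, where it rose (q = 0.0128), and 0.27 and 0.23 in Trp53-/- (q = 0.0600, not passing). *Nr1h3*, encoding the oxysterol receptor LXR alpha, rose in both genotypes, at 0.34 and 0.46 in wild-type and 0.42 and 0.43 in Trp53-/- (q = 0.00652 and 0.00559). The differences between genotypes were -0.09 for *Srebf1*, -0.13 for *Srebf2*, -0.20 for *Insig1* and 0.13 for *Mlxipl*, and none passed.

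Genes beside the pathway were mixed. Of 9 genes of cytosolic carbon and NADPH supply, 4 fell and 1 rose in wild-type, against 11.4% and 13.7% of all genes. In Trp53-/- 2 fell and 1 rose, against 10.5% and 12.7%. With median centring 7 were higher in wild-type and 8 in Trp53-/-, beside 11887 and 13527 of all 19678 genes. *Aacs*, which makes acetoacetyl-CoA in the cytosol, gave ratios of -0.73 and -0.80 in wild-type and -0.60 and -0.36 in Trp53-/- and fell in both (q = 0.000348 and 0.00427). *Idh1*, a source of NADPH, fell to means of -0.48 and -0.38 (q = 0.00308 and 0.0114). *Mlycd*, which breaks malonyl-CoA down again, rose to means of 0.48 and 0.29 (q = 0.00280 and 0.0295).

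Of 12 other elongases, elongation cycle enzymes and desaturases, 4 fell and 2 rose in wild-type, against 11.4% and 13.7% of all genes. In Trp53-/- 4 fell and 1 rose, against 10.5% and 12.7%. With median centring 8 were higher in wild-type and 11 in Trp53-/-, beside 11887 and 13527 of all 19678 genes. *Hacd1*, a dehydratase of the elongation cycle, fell in both genotypes, with means of -0.44 and -0.44 (q = 0.00446 and 0.00507). *Scd3* gave ratios of -0.18 and -0.53 in wild-type (q = 0.0214), where it fell as *Scd1* did. In Trp53-/-, *Scd3* fell to a mean of -0.33, and *Fads3*, a further desaturase, fell in wild-type (-0.43, q = 0.0109) and had a mean of 0.0143 in Trp53-/-. *Elovl2*, which elongates polyunsaturated fatty acids, rose in Trp53-/- (0.39, q = 0.0143) and had a mean of 0.21 in wild-type, which did not pass. *Hsd17b12*, the ketoacyl reductase of the cycle, fell in Trp53-/- (-0.38, q = 0.00916) and had 0.22 and 0.11 in wild-type.

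The separate mitochondrial route of fatty acid synthesis did not fall with the cytosolic one. Of its 9 genes, 2 rose and 1 fell in wild-type, against 13.7% and 11.4% of all genes. In Trp53-/- 2 rose and 0 fell, against 12.7% and 10.5%. With median centring 7 were higher in wild-type and 8 in Trp53-/-, beside 11887 and 13527 of all 19678 genes. *Mecr*, its enoyl reductase, rose in both genotypes (0.38 and 0.43, q = 0.00737 and 0.00472), as did *Cbr4* of its ketoacyl reductase (0.60 and 0.34, q = 0.000721 and 0.0136). *Lipt2*, a lipoyl transferase, fell in wild-type (-0.24, q = 0.0424) and had a mean of -0.18 in Trp53-/-, which did not pass.

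Genes that use fatty acids moved both ways. Of 20 genes of acyl-CoA synthesis and glycerolipid assembly, 6 fell and 4 rose in wild-type, against 11.4% and 13.7% of all genes. In Trp53-/- 5 fell and 4 rose, against 10.5% and 12.7%. With median centring 12 were higher and 1 lower in wild-type, and 17 higher and 0 lower in Trp53-/-. Of all 19678 genes, 11887 were then higher in wild-type and 13527 in Trp53-/-. *Acsl5*, an acyl-CoA synthetase, fell in wild-type (-0.54, q = 0.00167) and in Trp53-/- (-0.45), and *Acsl4*, which prefers arachidonate, fell in wild-type (-0.63, q = 0.00429) and had a mean of -0.0312 in Trp53-/-. *Pnpla3*, a lipase and known SREBP target, fell in both genotypes, with means of -0.55 and -0.44 (q = 0.00113 and 0.00427) and the PJ34 channel well above background on 1 of the 2 wild-type arrays. *Fabp7*, a fatty acid binding protein of radial glia, rose in both genotypes (0.47 and 0.58, q = 0.00516 and 0.00235). *Acsl1* rose in Trp53-/- (0.64, q = 0.00112) and had a mean of 0.23 in wild-type, which did not pass. The phosphatidate phosphatase *Lpin3* fell in Trp53-/- (-0.77, q = 0.00173) and had 0.0329 and -0.49 in wild-type.

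Of 23 genes of fatty acid oxidation, 8 rose and 0 fell in wild-type, against 13.7% and 11.4% of all genes. In Trp53-/- 4 rose and 4 fell, against 12.7% and 10.5%. With median centring 22 were higher and 0 lower in each genotype, beside 11887 of all 19678 genes higher in wild-type and 13527 in Trp53-/-. *Cpt1c*, a brain form of carnitine palmitoyltransferase, gave ratios of 1.01 and 0.90 in wild-type and -0.33 and 0.10 in Trp53-/-, and was the 1 gene of these lists whose response differed between genotypes past the test (difference 1.06 ± 0.16, SE, q = 0.00871). That call was lost with a normexp offset of 16 (q = 0.0960), the scanner's log ratios (q = 0.294) and median centring (q = 0.100), at differences of 1.12, 1.18 and 1.05. *Acadvl*, the very long chain acyl-CoA dehydrogenase, rose in both genotypes (0.73 and 0.34, q = 0.000364 and 0.0168), as did *Etfdh*, which passes its electrons on (0.60 and 0.38, q = 0.000933 and 0.0108). *Echs1* and *Eci2* of beta-oxidation fell in Trp53-/- (-0.40 and -0.40, q = 0.00762 and 0.00704), and had means of -0.24 and -0.0696 in wild-type, which did not pass.

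The cholesterol genes, which share SREBP control with the 10 genes, are given for comparison. Of 22 tested, 21 fell in wild-type and 17 in Trp53-/- with 0 rising, against 11.4% and 10.5% of all genes lower. With median centring 4 were lower and 2 higher in wild-type and 11 higher in Trp53-/-. Of all 19678 genes, 91 were then lower and 11887 higher in wild-type, and 13527 higher in Trp53-/-. Their median of -0.74 in wild-type and -0.57 in Trp53-/- was below that of the 10 fatty acid genes, and 4 of them fell more than 2-fold in wild-type, against 0 of the 10. *Lss* (-1.30), *Mvd* (-1.24) and *Dhcr7* (-1.15) fell most in wild-type (q = 2.89e-05, 5.42e-05 and 0.000185), and *Mvd* (-0.94), *Cyp51* (-0.78) and *Idi1* (-0.77) in Trp53-/- (q = 0.000308, 0.00105 and 0.000973). All 22 had a lower response in wild-type than in Trp53-/-, as all 10 fatty acid genes did, and 0 passed the test of that difference with Storey's q or Benjamini-Hochberg adjustment, while 6 had an unadjusted p below 0.05. The comparison of the lists shares all 4 arrays and was not tested.

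Without Trp53-/- replicate 2 738 of all genes were higher and 766 lower in Trp53-/-. The cholesterol list had 17 of 22 lower. The regulators had 3 lower and 0 higher, carbon and NADPH supply 1 lower and 0 higher, and the other elongases and desaturases 0 lower and 1 higher. Mitochondrial synthesis had 0 in either direction, glycerolipid assembly 3 lower and 2 higher, and fatty acid oxidation 0 lower and 1 higher.

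**Figure D4:**
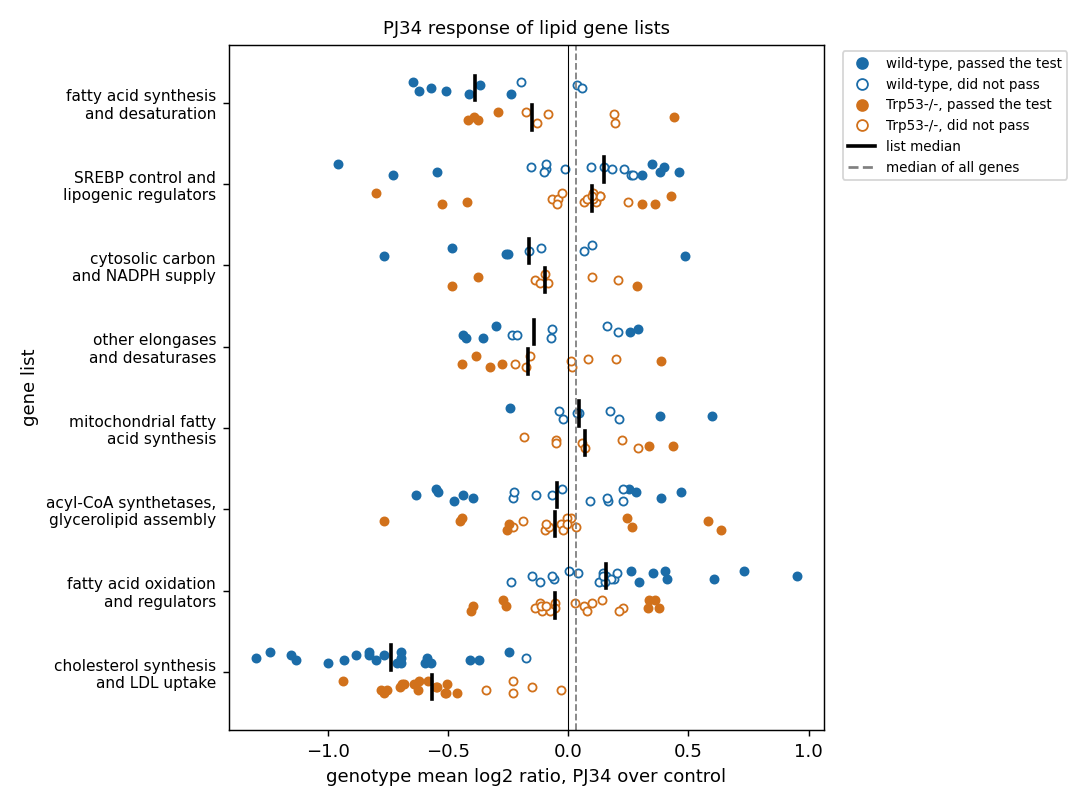
Genotype mean log2 ratios of PJ34 over control (x axis, after loess) of the genes of 8 lists (y axis), with filled points for genes that passed the test, a black bar at the list median and a dashed line at the median of all genes (0.03). The 10 fatty acid genes lie between the cholesterol genes, with medians of -0.74 and -0.57, and the remaining lists in wild-type, and under median centring the median of each list but that of the cholesterol genes in wild-type (-0.0979) was above 0.

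Across the processing settings, the median of the 10 genes minus that of all genes stayed below 0 in wild-type, from -0.58 without wild-type replicate 1 to -0.23 with median centring. In Trp53-/- it ran from -0.30 without Trp53-/- replicate 2 to -0.15 without Trp53-/- replicate 1, and was 0.12 with median centring. The difference between genotypes stayed below 0 throughout, from -0.38 with median centring to -0.13 without wild-type replicate 2. The relative decrease in wild-type and the lower response in wild-type than in Trp53-/- therefore kept their sign in all settings shown, and the relative decrease in Trp53-/- did not.

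**Figure D5:**
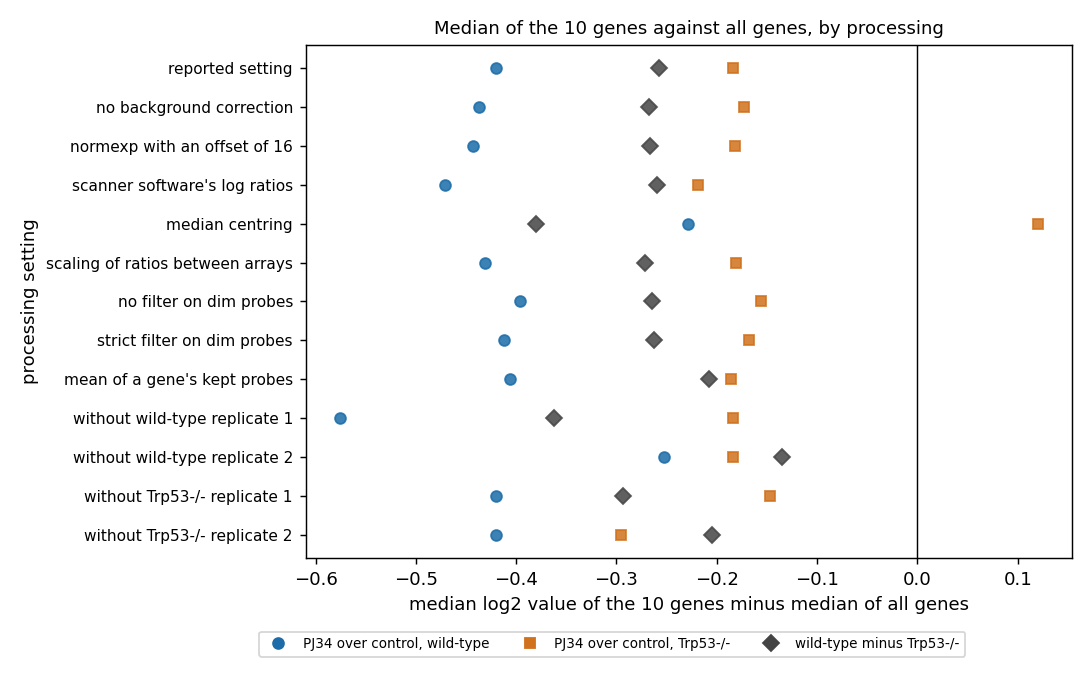
Median log2 value of the 10 genes minus the median of all genes (x axis) under each processing setting (y axis), for wild-type, Trp53-/- and their difference. The wild-type and difference points are left of 0 in every row, and the Trp53-/- point is right of 0, at 0.12, with median centring.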

How the data were processed

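Members and lists were chosen with earlier results of these data known. The authors extracted spots with Feature Extraction 10.7.3.1 and deposited, per the file headers, the mean intensity of each spot and the median intensity of its local background in each colour, both uncorrected. The log10 ratios and processed signal that the authors deposited, already background-subtracted and dye-normalized, were used as alternatives. A normalized table was not used here, since its 4 columns match no array by name. Background was corrected with limma's normexp (limma 3.58.1, R 4.3.3, offset 50), and ratios were normalized by loess within arrays. Control spots and outlier spots (228 to 276 per array) were left out. Probes were kept with at least 1 channel well above background on both arrays of a genotype, which gave 27036 probes and 19678 genes, each read from its brightest probe. Symbols came through RefSeq accessions for 27235 probes, otherwise from the files, whose later of 2 annotations was used. limma fitted genotype means over 4 arrays, with Storey's q over all genes. Untreated levels are the Cy3 channel after quantile normalization of mean intensities between arrays. Named genes were the 10, up to 3 passing genes per list and comparison with the largest change, *Srebf1*, *Srebf2*, *Insig1* and *Mlxipl*. No mm9 annotation was used, so the exons of the probes are not given. The fit was tested on simulated data. Alternatives changed background correction, normalization, filter, probe, block, adjustment and arrays. The number of arrays limits the precision, and the spread between them may be technical.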

Additional observations from a re-analysis of the deposited data

Results flagged for a closer look

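After loess, the response of *Acaca* to PJ34 had opposite signs in the genotypes on all 4 arrays, lower in wild-type and higher in Trp53-/-, with a difference of -0.43 (log2, wild-type minus Trp53-/-) that did not pass the test (limma's q = 0.103), and with median centring both means were positive, at 0.41 in wild-type. *Hsd17b12* had the reverse arrangement, higher in wild-type and lower in Trp53-/- on all 4 arrays, with a difference of 0.55 that did not pass (limma's q = 0.0539), and with median centring the Trp53-/- mean was positive, at 0.48. *Cpt1c* differed between genotypes past the test, by 1.06 (limma's q = 0.00871), with means of 0.95 in wild-type and -0.11 in Trp53-/-. The call was lost with a normexp offset of 16 (q = 0.0960), the scanner's log ratios (q = 0.294) and median centring (q = 0.100), where the Trp53-/- mean was 0.52.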

How the results depend on the processing

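Outside median centring, the responses of the 10 genes changed sign only for values that did not pass, namely *Scd2* without wild-type replicate 2 (0.12), *Elovl5* without wild-type replicate 1 (-0.00825) and, in Trp53-/-, *Scd1* without Trp53-/- replicate 1 (0.11). No difference between genotypes was called under any alternative. Of the 10, 7 passed in wild-type and 5 in Trp53-/-. These counts became 3 and 0 with the log ratios of the scanner. Over all 19678 genes, 853 were then higher and 649 lower in wild-type, and 378 and 216 in Trp53-/-. After loess these were 2687 and 2235, and 2504 and 2072. With median centring the counts of the 10 were 4 and 10, all higher, beside 11887 and 13527 of all genes higher. Leaving out 1 array at a time gave 3 to 7 in wild-type, 1 to 5 in Trp53-/- and 0 to 4 for the untreated levels, where *Scd1* ranged from -0.43 without wild-type replicate 2 to 0.37 without wild-type replicate 1. With 1 array left in a genotype, its response to PJ34 passed the test for fewer of all genes too. The replicate numbers were not taken to pair the arrays (correlation of same-number deviations -0.18 for ratios and 0.08 for control levels, 2 pairs). With the replicate block, 6 passed in wild-type, 5 in Trp53-/-, 0 in their difference and 0 in untreated levels, and with the crossed block, chosen after seeing the data, 7, 5, 0 and 0. Over all genes the replicate block gave 2294 higher and 1904 lower in wild-type, and 2046 and 1809 in Trp53-/-. The crossed block gave 3537 and 2790, and 3393 and 2704. Benjamini-Hochberg adjustment gave 5 and 4 of the 10. Over all genes it gave 1893 higher and 1630 lower in wild-type, and 1600 and 1421 in Trp53-/-.

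Median centring subtracts the median ratio of all spots used on each array, dim probes included. The median of all tested genes was then 0.46 in wild-type and 0.64 in Trp53-/-, and these values turned positive. In wild-type they were *Acly* 0.0691, *Acss2* 0.0276, *Acaca* 0.41, *Scd1* 0.25, *Scd2* 0.58, *Elovl6* 0.00387, *Fads1* 0.22, *Fads2* 0.0520, *Idh1* 0.0496, *Hacd1* 0.25, *Lipt2* 0.0650, *Echs1* 0.42 and *Eci2* 0.61. In Trp53-/- they were *Acly* 0.61, *Acss2* 0.42, *Scd1* 0.77, *Scd2* 0.95, *Elovl6* 0.60, *Fads1* 0.74, *Fads2* 0.34, *Mid1ip1* 0.18, *Insig1* 0.23, *Srebf2* 0.32, *Aacs* 0.39, *Idh1* 0.33, *Hacd1* 0.52, *Scd3* 0.0196, *Hsd17b12* 0.48, *Acsl4* 0.80, *Acsl5* 0.14, *Cpt1c* 0.52, *Echs1* 0.49, *Eci2* 0.55, *Lss* 0.0517, *Dhcr7* 0.10, *Cyp51* 0.0111 and *Idi1* 0.18. The cause was not tested. No block for slide or scan was possible, as every array was on a slide and scan of its own.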
